A study of Mus musculus with 18 samples.

Results

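The comparison described here set mouse induced pluripotent stem cells kept by the reprogramming factors themselves (OSKM-iPSCs) against the mouse embryonic fibroblast (MEF) cells from which they were made. It used 4 of the 18 RNA-Seq libraries of the series, namely clones 1 and 3 of the OSKM-iPSCs and libraries 1 and 2 of the MEF cells, chosen by their titles. Results by gene cover all genes except those on the X and Y chromosomes, which left 51276 of 55469 genes. All 4 libraries came from (C57BL/6 x 129S4/SvJae)F1 cells. The MEF cells were grown in DMEM with 10% FBS and collected at passage 4. The OSKM-iPSC clones were induced and then kept in N2B27, a serum-free medium, with doxycycline (DOX), and were collected at passage 7 (clone 1) and passage 6 (clone 3). Per the study's methods, the mice carried the DOX-responsive transactivator M2rtTA at Rosa26 and 1 polycistronic transgene of Oct4, Sox2, Klf4 and c-Myc at Col1a1, and the fibroblasts were seeded on feeder cells for reprogramming. The pluripotent arm is thus 2 clones, and cell type, medium, DOX and passage cannot be told apart. Nothing in the labels says whether the MEF libraries came from separate embryos, so p-values measure the spread between these 2 libraries and these 2 clones.

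Thy1 and Col1a1 marked the MEF libraries and Pou5f1 and Nanog the OSKM-iPSC libraries, as the labels have it. Fibroblasts are connective tissue cells that build the extracellular matrix and pull on it through actin fibres. In reprogramming, OCT4 (gene Pou5f1), SOX2, KLF4 and MYC shut this programme down, cells pass through a mesenchymal-to-epithelial transition in which E-cadherin replaces N-cadherin, and the endogenous network around OCT4, SOX2 and NANOG is switched on. Mouse pluripotent cells divide fast with a short first gap phase, use glycolysis and threonine-derived one-carbon units, and carry de novo DNA methyltransferases and a full set of Polycomb proteins.

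Gene expression was taken as the deposited FPKM, the fragments per kilobase of transcript scaled to the fragments mapped in a library, which allows levels of different genes to be compared. Between 11502 and 11668 genes outside X and Y had an FPKM over 1 in each of the 4 libraries. The depth in reads is unknown. The median coverage per unit of FPKM over genes with a single annotated transcript, those on X and Y included, lay between 5.22 and 6.07. This ratio rises with depth. The MEF libraries resembled each other more than the clones did, with a Pearson's r across genes of 0.984 for MEF cells and 0.931 for the clones on log2(FPKM + 1), and 0.854% of expressed genes differing over 2-fold between the MEF libraries against 10.2% between the clones. These comparisons, unlike the counts of changed genes, included genes on X and Y. No 2 libraries held identical values. A value listed at 0 can be a failed estimate in these files. Snrpf, a core spliceosome gene that every cell uses, was listed at 0 in both MEF libraries, and mt-Atp6 was listed at 0 in 3 of the 4 libraries, so no ratio is given against a group listed at 0. The fitted log2 fold change of such a gene depends on the value of 1 added to each FPKM and is no bound, which also holds for the order of the largest changes and for group medians that include such genes.

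The regulatory sequences that bear on the largest groups of changed genes are shown first. The 250 bases before the start of each gene were taken from RefSeq promoters of GRCm38.p6, the build of the files, and 3 pluripotency genes and 3 actin genes were chosen because they hold a textbook motif. Nanog carries the composite OCT4-SOX2 motif, searched by its usual form on both strands, and Zfp42 and Zfp296 carry the octamer ATGCAAAT bound by OCT4, searched on both strands. The composite motif holds part of the octamer. The capitals mark the motif, and each sequence runs 5′ to 3′ along the gene's strand.
Nanog (chr6:122707239-122707488, strand +): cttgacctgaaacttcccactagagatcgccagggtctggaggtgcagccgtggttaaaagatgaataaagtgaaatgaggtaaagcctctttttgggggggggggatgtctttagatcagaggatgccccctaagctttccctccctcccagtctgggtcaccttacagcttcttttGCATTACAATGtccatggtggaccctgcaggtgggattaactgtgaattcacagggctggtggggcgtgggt
Zfp42 (chr8:43307010-43307259, strand -): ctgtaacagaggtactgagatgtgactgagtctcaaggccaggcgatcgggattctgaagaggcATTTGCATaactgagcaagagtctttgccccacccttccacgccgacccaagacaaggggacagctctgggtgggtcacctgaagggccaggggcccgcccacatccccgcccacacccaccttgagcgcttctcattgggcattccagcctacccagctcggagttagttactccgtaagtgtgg
Zfp296 (chr7:19577037-19577286, strand +): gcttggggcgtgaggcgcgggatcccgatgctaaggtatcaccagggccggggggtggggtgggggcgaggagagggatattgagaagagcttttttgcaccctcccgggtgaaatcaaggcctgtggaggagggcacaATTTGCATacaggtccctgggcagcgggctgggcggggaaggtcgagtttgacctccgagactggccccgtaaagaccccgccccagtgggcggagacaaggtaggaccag
Of 32851 promoter windows of the same length, 19 (0.0578%) held the composite motif and 526 (1.60%) the octamer. Of the 26 windows found for 16 of the 21 pluripotency transcription factors listed, 2 held the composite motif, both of Nanog, and 2 (7.69%) held the octamer. The octamer was also found in 4 of 26 windows (15.4%) of actin and serum response genes, which belonged to Egr2 and Srf. Of 17 windows found for 14 further genes of pluripotent cells, 0 held the composite motif. The octamer stood in 1 of them (5.88%), that of Spp1, which was lower in OSKM-iPSCs. Among the genes of actin and serum response, the CArG box, bound by serum response factor, was searched by its usual form on both strands. It stands in capitals in the windows of Myl9, Cnn2 and Vcl.
Myl9 (chr2:156775214-156775463, strand +): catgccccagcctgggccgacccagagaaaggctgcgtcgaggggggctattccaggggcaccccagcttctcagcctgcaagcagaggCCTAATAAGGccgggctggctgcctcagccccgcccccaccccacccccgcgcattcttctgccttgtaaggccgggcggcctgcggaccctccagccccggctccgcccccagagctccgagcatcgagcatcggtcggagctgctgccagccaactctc
Cnn2 (chr10:79988350-79988599, strand +): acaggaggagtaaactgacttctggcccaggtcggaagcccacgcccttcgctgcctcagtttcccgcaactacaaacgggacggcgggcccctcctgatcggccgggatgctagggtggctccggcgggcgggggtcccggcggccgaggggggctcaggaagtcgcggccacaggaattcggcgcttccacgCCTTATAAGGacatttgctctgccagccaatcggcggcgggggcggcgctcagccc
Vcl (chr14:20929148-20929397, strand +): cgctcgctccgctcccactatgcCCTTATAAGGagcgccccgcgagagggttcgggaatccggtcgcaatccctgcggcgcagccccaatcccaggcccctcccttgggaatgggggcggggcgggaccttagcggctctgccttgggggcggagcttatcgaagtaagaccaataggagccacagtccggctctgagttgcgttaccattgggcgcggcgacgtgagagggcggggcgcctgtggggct
The CArG box was found in 482 of all windows (1.47%), and in 8 of 26 windows of 21 genes of actin and serum response, which belonged to Cnn2, Egr2, Myl9, Srf and Vcl. A match of letters describes a window and does not show binding.

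Of 13665 genes tested, 3282 (24.0%) were higher in OSKM-iPSCs and 2813 (20.6%) were lower, with limma on log2(FPKM + 1), a Benjamini-Hochberg adjusted p-value under 0.05 and mean FPKM values over 2-fold apart. The median log2 fold change of all tested genes was 0.17, which later values can be read against, and it was 0.02 when libraries were scaled by median ratios. The largest increases belonged to markers of pluripotent and epithelial cells, namely Pou5f1, Dppa5a, L1td1, Utf1, Lefty1, Tdgf1, Epcam, Lin28a, Dnmt3b and Cdh1. The largest decreases belonged to Prss23, S100a4, Fbln2, Lox, Cavin2, Lyz2, Cav1, Il1rl1, Gpnmb and Acta2, among them matrix proteins, caveola proteins and smooth muscle actin. Prss23, a secreted serine protease, was at 358 and 331 in MEF cells and listed at 0 in both clones. Cavin2, a caveola coat protein, was at 169 and 199 in MEF cells, and at 0.754 in clone 1 and 0.0162 in clone 3. The genes of both sets were picked among those with no library of one group within the range of the other. Of 5632 genes over 10 FPKM in both MEF libraries, 101 were under 1 in both clones, and of 1885 genes under 1 in both MEF libraries, 128 were over 10 in both clones. The calls rested on both MEF libraries, since leaving out either of them, which takes the spread from the clones alone, left 0 genes with an adjusted p-value under 0.05 by limma, while at an unadjusted p-value under 0.05 there were 2599 higher and 2249 lower genes without library 1 and 2666 and 2278 without library 2. Leaving out a clone likewise takes the spread from the MEF libraries alone. A p-value from such a fit carries no spread between clones. An exact 2-sided permutation test of 2 against 2 libraries cannot go below p = 0.333.

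**Figure D1:**
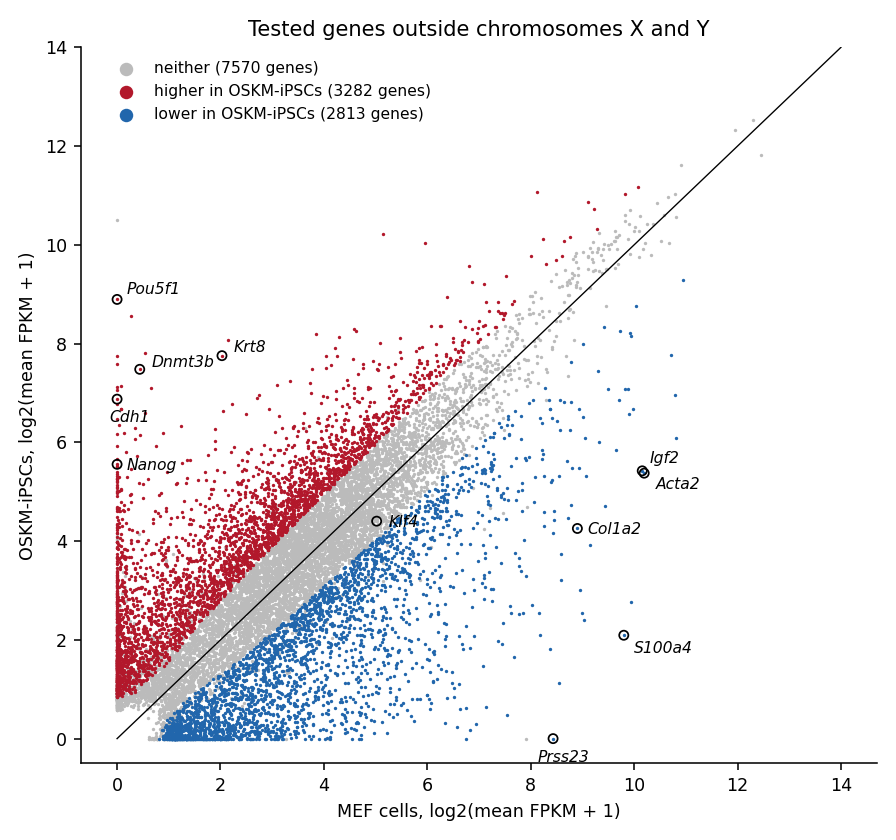
Mean FPKM of the 13665 tested genes in MEF cells (x axis) and OSKM-iPSCs (y axis), both as log2(mean FPKM + 1), n = 2 libraries each, with genes higher in OSKM-iPSCs in red (3282), lower in blue (2813) and neither in grey (7570), and the line of equal levels in black. Pou5f1, Nanog and Cdh1 lie on the left edge, where MEF cells were listed at 0, and Prss23 on the lower edge, where the clones were.

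The gene groups split along the line between fibroblast and pluripotent cell. The groups of pluripotency, epithelial, DNA methylation, serine and glycine, and cell-cycle driver genes held mostly higher members, whereas the fibroblast, mesenchymal, matrix, actin and Hox groups held at most 1 higher member each. The lists share members, with 6 of the fibroblast genes also among the mesenchymal and 8 among the matrix genes, so their counts are not independent. Where a group is given with 0 genes in one direction against MEF cells, the limma count at an unadjusted p-value under 0.05 was also 0. Of the pluripotency transcription factors, pluripotent-cell, epithelial and germline genes, 6 of 21, 4 of 26, 9 of 32 and 0 of 23 had a mean over 1 FPKM in MEF cells. Many of those tested thus passed the filter through the clones alone, and their counts describe the members only. Of the Hox, endoderm, and blood and endothelial genes over 1 FPKM in MEF cells, 27 of 28, 4 of 4 and 5 of 6 were under 1 in clone 3. Clone 1 had 25, 3 and 5 under 1, so many of these passed through MEF cells alone, and the same limit holds. In bulk RNA, fewer cells of a type and less RNA per cell cannot be told apart.

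**Figure D2:**
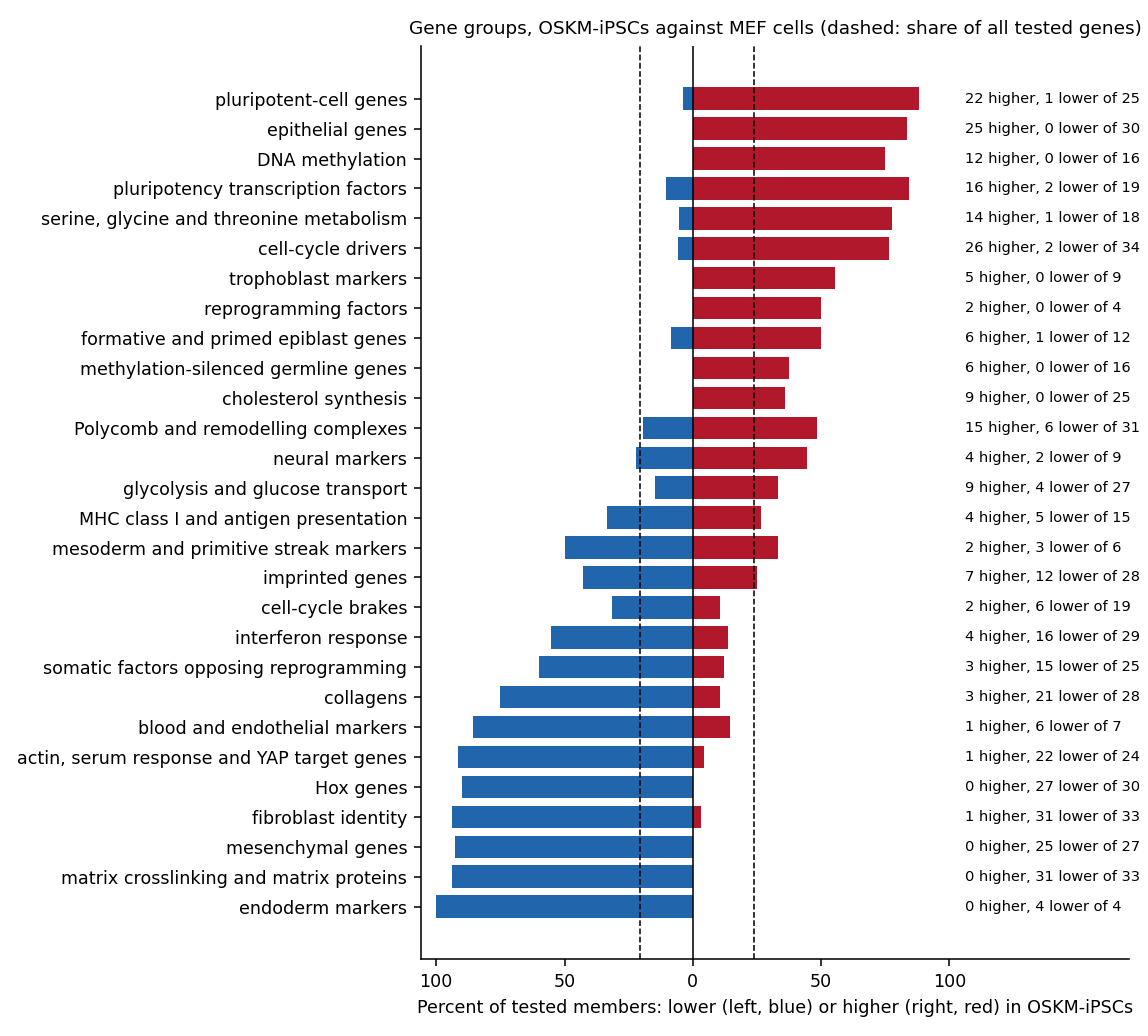
Percent of the tested members of each gene group that were higher (red, to the right) or lower (blue, to the left) in OSKM-iPSCs than in MEF cells, with the counts printed at the right and the shares of all tested genes, 24.0% higher and 20.6% lower, as dashed lines. Pluripotent-cell and epithelial genes stand at the top, with 22 of 25 and 25 of 30 members higher, and matrix and fibroblast genes near the bottom, with 31 of 33 members lower in each.

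Of the 4 reprogramming factors, all supplied by the transgene, 2 were higher in OSKM-iPSCs and 0 were lower. Gene-level FPKM pools reads of the transgene and of the endogenous gene, so the 2 sources were not separated. Pou5f1 (chr17:35506018-35510772), which encodes OCT4, was at 437 FPKM in clone 1 and 513 in clone 3 and was listed at 0 in both MEF libraries (adjusted p = 0.000768). Sox2 (chr3:34650405-34652461) was at 66.4 and 93.2 in the clones and at 1.15 and 1.59 in MEF cells, a 58.3-fold difference of means (adjusted p = 0.00107). Both stood clear of the MEF range in both clones. Klf4 (chr4:55527143-55532466), in contrast, was at 26.1 and 14.2 in the clones and at 30.6 and 32.3 in MEF cells, with a log2 fold change of -0.67 ± 0.30 that missed the threshold (adjusted p = 0.121). Myc (chr15:61985391-61990374) was at 71.9 and 42.4 in the clones and at 31.3 and 35.7 in MEF cells (log2 fold change 0.71 ± 0.28, adjusted p = 0.0915). The clones overlapped MEF cells in neither gene, and the size of the change depended on the clone in each. The log2 fold change of Klf4 was -1.09 without clone 1, and that of Myc was 1.08 without clone 3.

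Of the other pluripotency transcription factors, 16 of 19 tested were higher and 2 were lower, with a median log2 fold change of 3.67. Nanog, a core factor of the network, was at 37.0 and 55.0 in the clones and was listed at 0 in both MEF libraries (adjusted p = 0.00107). Esrrb, an orphan nuclear receptor of naive cells, was at 23.1 and 54.1 in the clones and at 0 and 0.0621 in MEF cells (adjusted p = 0.00209). Sall4, a zinc finger partner of OCT4, was at 29.7 and 31.7 in the clones. Zfp42, the marker also called Rex1, was at 11.1 in clone 1 and 54.9 in clone 3, so the clones differed from each other while both lay above MEF cells, listed at 0. Zfp296, whose octamer is shown above, was at 8.54 and 8.30 in the clones and at 0.800 and 1.79 in MEF cells (adjusted p = 0.00469). Tbx3 and Klf5 went the other way. Tbx3, a T-box factor of naive cells that is also used in limb and mesenchyme, was at 0.537 and 0.872 in the clones and at 4.70 and 5.52 in MEF cells (adjusted p = 0.00312). Klf5 was at 5.88 and 3.39 in the clones and at 8.98 and 9.69 in MEF cells, 2.02-fold lower (adjusted p = 0.0388), and it was no longer over 2-fold lower without clone 3 and no longer called without the filter on low values (adjusted p = 0.0892). Klf2, the tested factor that was neither, was at 9.68 and 24.2 in the clones and at 6.35 and 6.70 in MEF cells (adjusted p = 0.0891).

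Among 25 further genes of pluripotent cells that were tested, 22 were higher and 1 was lower, with a median log2 fold change of 4.85. Lin28a, which blocks let-7 maturation, was at 135 and 130.0 in the clones and listed at 0 in MEF cells, and L1td1, an RNA-binding protein, was at 238 and 189.9 against 0. Tdgf1, the Nodal co-receptor, was at 152 and 123 in the clones against 0, and Lefty1, a Nodal antagonist, was at 289.7 and 158 against 0.632 and 0.282. These genes had clones within about the same range, whereas Dppa5a, which has near-identical copies in the genome, was at 178 in clone 1 and 575 in clone 3. Spp1, the matrix phosphoprotein osteopontin, which pluripotent cells and mesenchymal cells both make, fell from 742 and 862 in MEF cells to 55.6 and 56.9 in the clones (adjusted p = 0.000972). Of 12 formative and primed epiblast genes tested, 6 were higher and 1 was lower. Pou3f1, which encodes OCT6, was at 23.2 and 23.5 in the clones and at 0.0219 and 0.0570 in MEF cells, and Otx2 was at 4.33 and 11.7 against 0 in both. Sox4 fell, from 50.2 and 49.0 to 18.2 and 10.8.

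**Figure D3:**
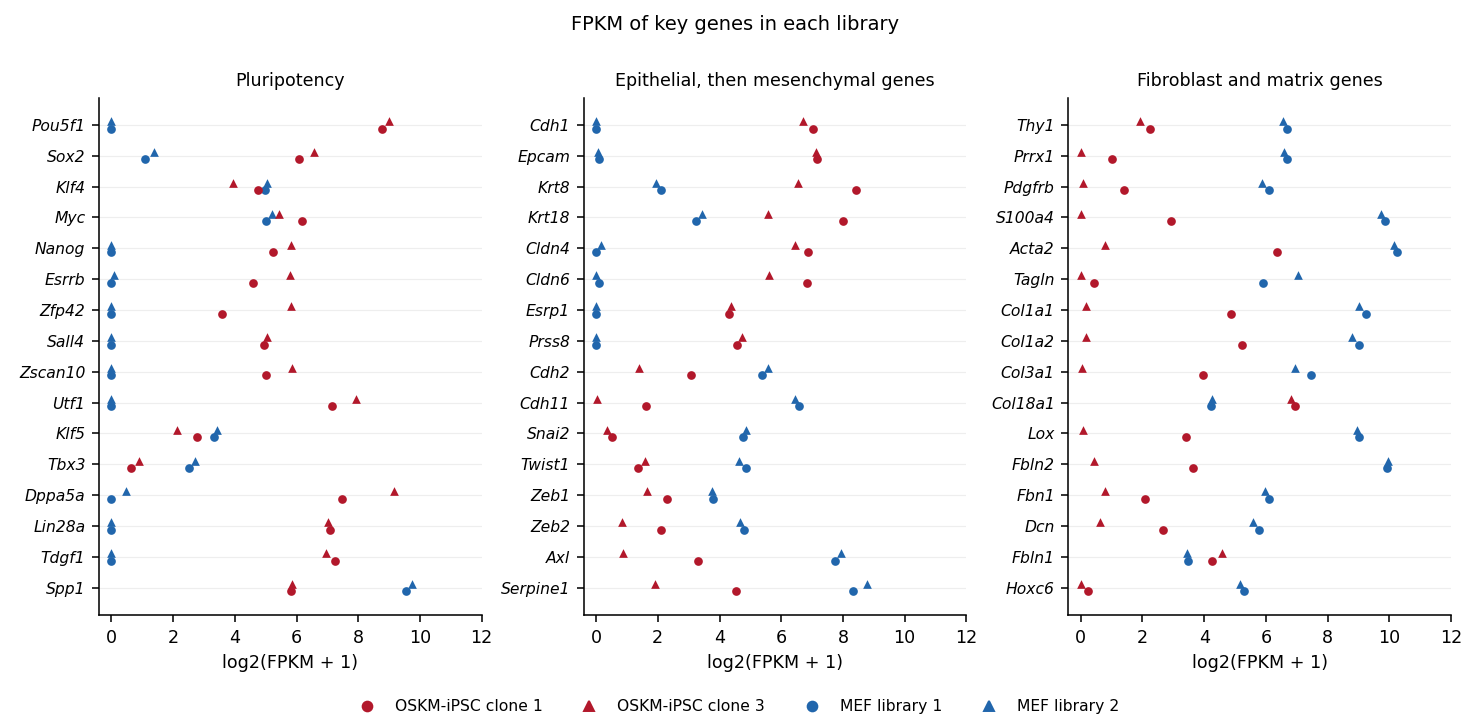
Level of key genes in each library as log2(FPKM + 1), with OSKM-iPSC clones in red and MEF libraries in blue (circles for clone 1 and library 1, triangles for clone 3 and library 2). Klf4 and Myc lie close together in both cell types, most other pluripotency genes and the epithelial genes sit far to the right in the clones, and clone 1 stands between clone 3 and MEF cells for Acta2, Col1a1, Col1a2 and Col3a1.

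Epithelial genes rose as a group, with 25 of 30 tested members higher, 0 lower and a median log2 fold change of 3.34. Cdh1, which encodes E-cadherin, was at 129 and 104 in the clones and listed at 0 in MEF cells (adjusted p = 0.000876). Epcam, an epithelial adhesion molecule, was at 143 and 138 against 0.0631 and 0.0563. The tight junction gene Cldn6 was at 113 and 48.0 against 0.0621 and 0, and the epithelial splicing regulator Esrp1 was at 18.9 and 19.6 against 0 in both. The keratins of simple epithelia differed between clones, with Krt8 at 339 in clone 1 and 91.3 in clone 3 against 3.33 and 2.83 in MEF cells, and Krt18 at 256 and 46.7 against 8.37 and 9.91. Both keratins have processed copies in the genome.

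Mesenchymal genes fell, with 25 of 27 tested members lower and 0 higher (median log2 fold change -3.25). Cdh2, which encodes N-cadherin, went from 41.0 and 47.1 in MEF cells to 7.43 and 1.64 in the clones (adjusted p = 0.0118). The repressors of E-cadherin fell by different amounts. Snai2 went from 26.0 and 28.0 to 0.428 and 0.266, 77.8-fold lower, whereas Zeb1 went from 12.8 and 12.5 to 3.91 and 2.13, 4.18-fold lower. Twist1 went from 27.8 and 23.8 to 1.54 and 2.00 (adjusted p = 0.00122). Axl, a receptor tyrosine kinase, went from 211 and 247 to 8.91 and 0.823. Tgfbr1 and Fgfr1 were the 2 members that were neither.

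Fibroblast identity genes were lower in 31 of 33 tested, with a median log2 fold change of -4.60. Prrx1, a homeobox factor of limb mesenchyme, was at 101 and 94.3 in MEF cells, 1.03 in clone 1 and 0 in clone 3 (adjusted p = 0.00141). Thy1, a surface antigen of fibroblasts, went from 101 and 92.5 to 3.72 and 2.76, 29.8-fold lower. S100a4, also called fibroblast-specific protein, was at 931 and 850.1 in MEF cells, 6.54 in clone 1 and 0 in clone 3. Acta2, smooth muscle actin, was at 1214 and 1129 in MEF cells, 80.4 in clone 1 and 0.709 in clone 3 (log2 fold change -6.63 ± 1.92, adjusted p = 0.0413), and TPM in place of FPKM gave an adjusted p of 0.0529. Fbln1, which encodes a matrix and basement membrane protein, went the other way, at 18.1 and 22.8 in the clones and 10.1 and 9.77 in MEF cells (adjusted p = 0.00857), and it was no longer over 2-fold higher with median-ratio scaling, quantile normalization or TPM, or without clone 3. Nt5e, the ecto-nucleotidase CD73, was neither, with MEF cells at 3.08 and 4.05 between clone 3 at 1.23 and clone 1 at 11.0.

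The matrix itself followed. Of 33 matrix and crosslinking genes tested, 31 were lower and 0 were higher. Lox, the enzyme that crosslinks collagen and elastin, went from 519.9 and 495 to 9.60 and 0.0548, and Fbln2 from 959 and 995 to 11.4 and 0.333. Plod1 and Serpinh1, which modify and fold collagen, were neither. Of 28 collagen genes tested, 21 were lower and 3 were higher. Col1a1 (chr11:94936224-94953042), the locus that also carries the transgene, went from 609 and 518 to 28.1 in clone 1 and 0.114 in clone 3 (adjusted p = 0.0266). Col1a2, the partner chain of type I collagen, was at 516 and 439.6 in MEF cells, 36.1 in clone 1 and 0.130 in clone 3. The higher members were Col18a1, Col9a2 and Col26a1, of which Col18a1, a basement membrane collagen, was at 123 and 111 in the clones and 17.7 and 17.9 in MEF cells (adjusted p = 0.00105). The call for Col9a2 was lost with median-ratio scaling (adjusted p = 0.0537), quantile normalization, no trend and no filter.

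Actin, serum response and YAP target genes were lower in 22 of 24 tested, with a median log2 fold change of -2.98. Myl9, the regulatory light chain of smooth muscle myosin, went from 166 and 142 to 10.6 and 3.80 (adjusted p = 0.00314). Cnn2, a calponin, went from 226 and 245 to 79.5 and 21.0, and Vcl, which encodes vinculin of focal adhesions, from 154 and 151 to 53.4 and 21.5. These 3 genes are named because their promoter windows held a CArG box, not by the size of their change. The transcription factors linked in fibroblasts to resistance against reprogramming were lower in 15 of 25 tested and higher in 3. Fosl1, an AP-1 subunit, went from 6.00 and 16.6 to 0.399 and 0.217, a call lost without either clone (adjusted p = 0.0752 and 0.0706), and Nfix, a nuclear factor I protein, from 46.8 and 40.6 to 0.699 and 0.492. Jund, another AP-1 subunit, rose from 41.8 and 42.8 to 94.0 and 115. Tead2, a DNA-binding partner of YAP, rose from 20.1 and 17.7 to 56.6 and 57.5, and Cebpb from 4.06 and 4.45 to 7.74 and 11.2, 2.22-fold. The call for Cebpb was lost with median-ratio scaling (log2 fold change 0.83), without clone 3 (0.73) and with all 18 libraries in one fit (adjusted p = 0.0746).

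Hox genes, which record the position of a cell along the body axis, were lower in 27 of 30 tested and higher in 0. Hoxc6 was at 37.7 and 35.0 in MEF cells, 0.169 in clone 1 and 0 in clone 3. Of 28 Hox genes over 1 FPKM in MEF cells, 25 were under 1 in clone 1 and 27 in clone 3. Most of those tested thus passed the filter through MEF cells alone, and the count describes the members only.

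The clones did not lose the fibroblast programme to the same extent. The summed FPKM of the fibroblast identity genes was 9244 and 8796 in MEF cells, 981 in clone 1 and 219 in clone 3, which is 10.9% and 2.43% of the MEF mean. The median of the 34 members stood at 5.03% in clone 1 and 0.125% in clone 3. Clone 1 was above clone 3 in 30 of 33 fibroblast identity genes, 31 of 33 matrix genes and 22 of 24 actin and serum response genes. Over all genes lower than in MEF cells, clone 1 was above clone 3 in 1945 of 2813 (69.1%), and the median gene stood at 20.8% of the MEF mean in clone 1 and 14.4% in clone 3. Among the genes higher than in MEF cells, clone 1 was above clone 3 in 39.3%. The called genes with the largest excess in clone 1 were Acta2, Col1a2, Anxa1, Col1a1 and S100a6. Anxa1, a phospholipid-binding annexin, was at 50.2 in clone 1 and 0.823 in clone 3, against 429.9 and 443 in MEF cells, and S100a6 was at 127 and 6.69, against 1799.7 and 1795. Without the filter on low values none of these 5 genes was called (adjusted p of 0.0711 to 0.114). With a pseudocount of 0.1 the calls for Acta2, Col1a2, Anxa1 and Col1a1 were lost, with TPM those for Acta2, Col1a2 and Anxa1, and without the trend that for Anxa1. In clone 1, Col1a2 stood at 7.55% of the MEF mean, S100a4 at 0.734%, Prrx1 at 1.05% and Hoxc6 at 0.465%. What part of the excess in clone 1 came from feeder or unconverted cells was not tested.

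The called genes with the largest excess in clone 3 were Lncenc1, Zfp978, Dmrt1, Zfp42 and Zfp981, each listed at 0 in both MEF libraries. Without the filter on low values the limma calls for Lncenc1, Zfp978, Dmrt1 and Zfp981 were lost (adjusted p of 0.0608 to 0.0940). Lncenc1, a noncoding RNA of naive embryonic stem cells, was at 7.03 in clone 1 and 67.2 in clone 3. Dmrt1, a factor of germ cells, was at 2.90 and 21.7. The germline genes that DNA methylation keeps silent in somatic cells followed the same order, with clone 3 above clone 1 in 22 of 23 members, 7 of which stayed below the filter, and a summed FPKM of 114 in clone 3, 30.9 in clone 1, and 2.06 and 1.68 in MEF cells. None of the 23 had a mean over 1 FPKM in MEF cells, so the 16 tested passed the filter through a clone alone, and counts over them are no support for a difference. Of these 16, 6 were higher in OSKM-iPSCs, among them Tex19.1, at 8.89 and 20.6 against 0, Tdrd12, at 5.16 and 16.9 against 0.0446 and 0.0308, and Rec8, at 6.23 and 8.48 against 0 and 0.0145. Without clone 1 the spread comes from the MEF libraries alone, so no count is given for that fit. Genes over 5 FPKM in both clones gave no chromosome that stood apart, since the median difference of log2 values (clone 1 minus clone 3) over the 19 autosomes ranged from -0.06 to 0.11.

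**Figure D4:**
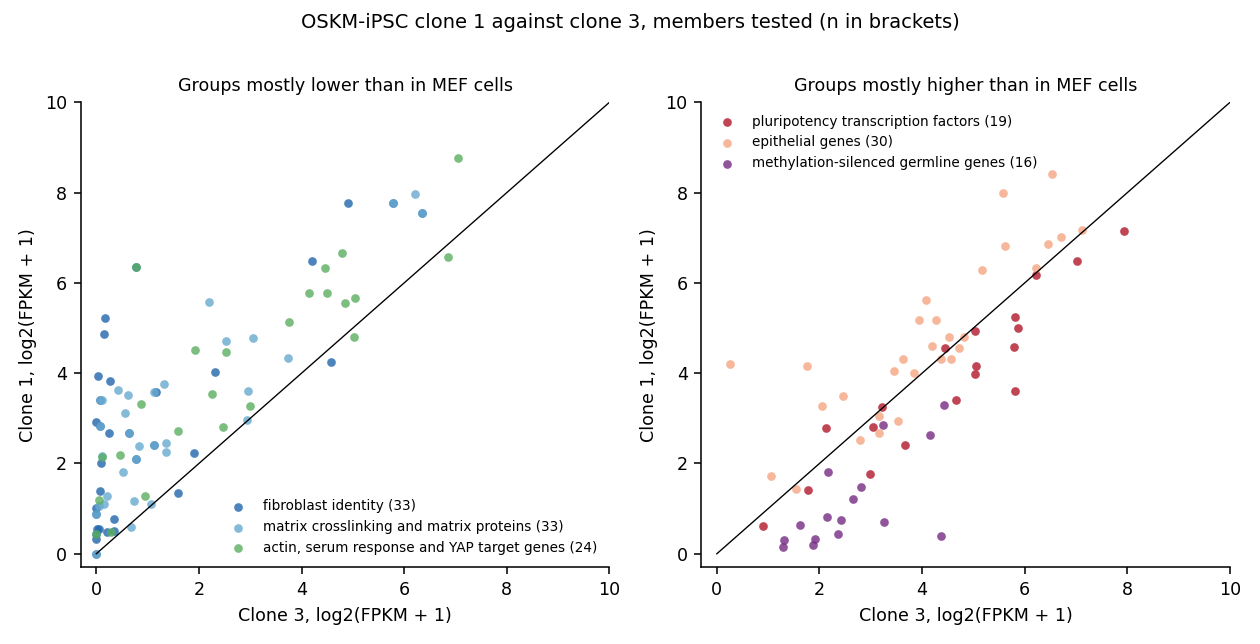
Levels in OSKM-iPSC clone 3 (x axis) and clone 1 (y axis), as log2(FPKM + 1), for tested members of 3 groups mostly lower than in MEF cells (left) and 3 groups mostly higher (right), with the line of equal levels in black. Most fibroblast, matrix and actin genes lie above the line (30 of 33, 31 of 33 and 22 of 24), and all 16 germline genes lie below it. The other 2 groups on the right differ, with 21 of 30 epithelial genes above the line and 16 of 19 pluripotency transcription factors below it.

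Writers and erasers of DNA methylation rose with the pluripotency genes, with 12 of 16 tested higher and 0 lower. Dnmt3b, a de novo methyltransferase, was at 133 and 222 in the clones and at 0.302 and 0.408 in MEF cells (adjusted p = 0.00105). Dnmt3l, its catalytically inactive partner, was at 40.6 in clone 1 and 163 in clone 3, against 0.0207 and 0.0777. Uhrf1, which brings DNMT1 to replicated DNA, went from 19.8 and 19.4 to 123 and 148. Tet1, which oxidises 5-methylcytosine, was 77.8-fold higher than in MEF cells (adjusted p = 0.00217), while Tet2, at 3.99 and 3.95 against 2.17 and 2.04, had an adjusted p of 0.0184 but stayed under 2-fold. Among Polycomb and chromatin remodelling genes, 15 of 31 were higher and 6 were lower, against 24.0% and 20.6% over all tested genes, so the lower share is near that of all genes. Epop, an accessory protein of Polycomb repressive complex 2, went from 0.870 and 0.843 to 69.7 and 73.5, and the catalytic subunit Ezh2 rose 4.79-fold to 65.2 and 60.8. Cbx7, a chromodomain subunit of Polycomb repressive complex 1, rose from 0.824 and 0.637 to 27.8 and 17.7. Smarcd3 and Smarca2, subunits of BAF remodelling complexes, fell, the former from 6.66 and 5.48 to 0.856 and 1.04.

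Cell-cycle drivers were higher in 26 of 34 tested and lower in 2, with a median log2 fold change of 2.21. Ccnb1, a mitotic cyclin, went from 16.1 and 14.7 to 183 and 179.5, 11.8-fold (adjusted p = 0.000972). Ccne1, the cyclin of entry into S phase, went from 17.6 and 17.9 to 79.0 and 95.1. The mitotic kinases Plk1 and Aurka rose 8.53-fold and 8.13-fold. The 2 lower members were both D-type cyclins, which carry growth factor signals into the cycle. Ccnd2 went from 176 and 175 to 7.83 in clone 1 and 0.367 in clone 3 (adjusted p = 0.00914), and Ccnd1 from 137 and 156 to 57.7 and 29.9. Of 19 brakes of the cycle, 6 were lower and 2 were higher, against 20.6% and 24.0% over all tested genes. Cdkn1a, which encodes p21, went from 359 and 397 to 82.7 and 67.8, 5.02-fold lower (adjusted p = 0.00140). Within the Ink4 locus on chromosome 4, Cdkn2b fell 5.05-fold from 29.9 and 29.8 in MEF cells (adjusted p = 0.00187), whereas Cdkn2a, which encodes p16 and p19Arf, was at 18.5 and 25.7 in the clones and at 30.7 and 27.2 in MEF cells (log2 fold change -0.39 ± 0.19, adjusted p = 0.148). Cdkn1c was at 26.4 and 6.93 against 27.9 and 21.1 (adjusted p = 0.337). Gadd45a and Sesn2, both stress-induced, rose 2.10-fold and 2.55-fold, and the call for Gadd45a was lost without either clone and with 3 of the other alternatives (median-ratio scaling, TPM and quantile normalization).

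**Figure D5:**
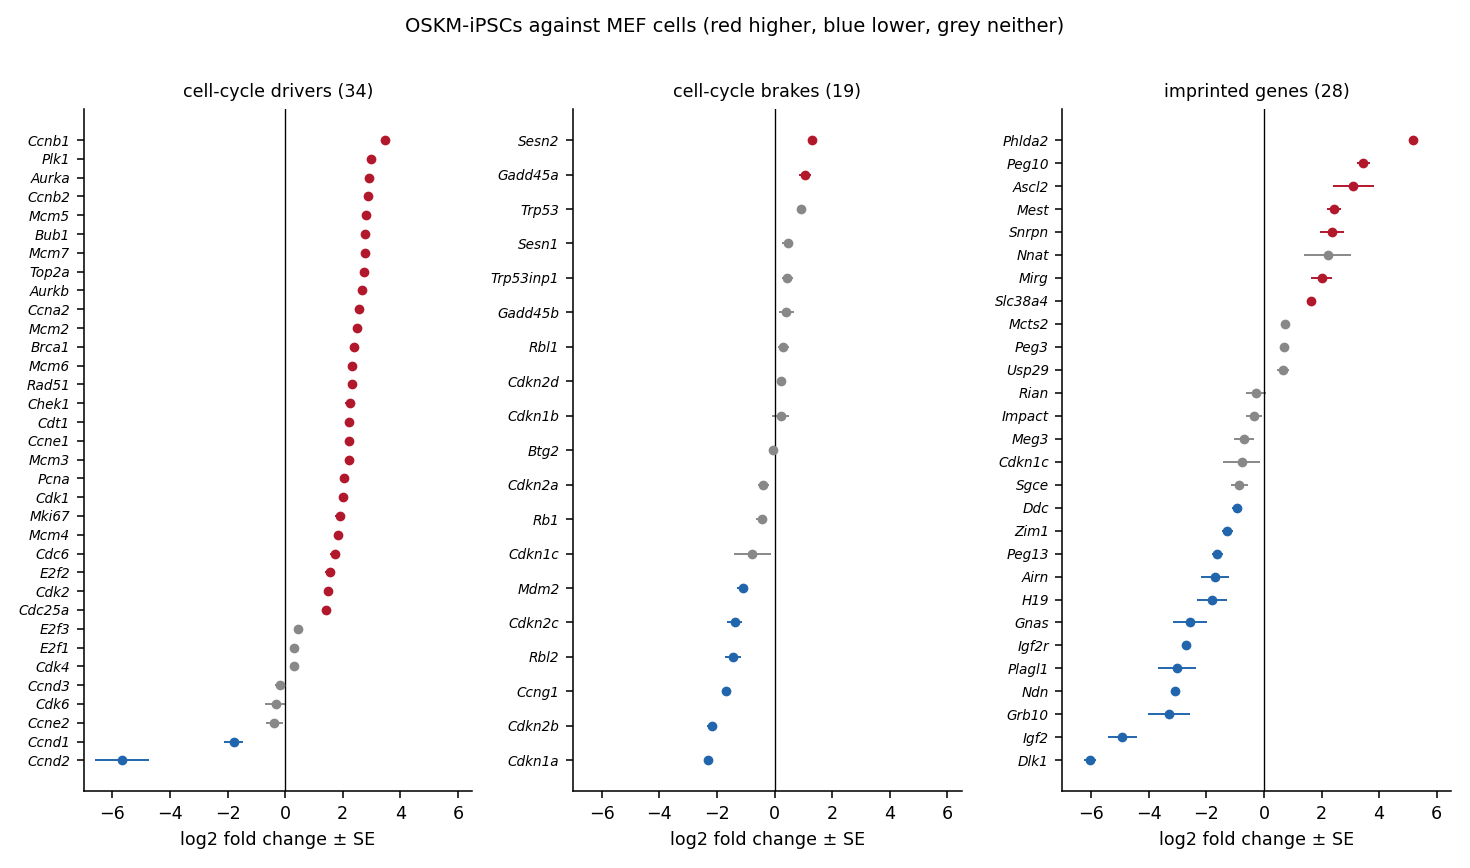
Log2 fold changes of OSKM-iPSCs against MEF cells with their standard errors (limma, n = 2 per group) for tested cell-cycle drivers (34), cell-cycle brakes (19) and imprinted genes (28), in red for higher, blue for lower and grey for neither. All drivers but the D-type cyclins Ccnd1 and Ccnd2 are red or grey, and imprinted genes run from Dlk1 at -6.04 to Phlda2 at 5.18.

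Metabolic genes moved unequally. Of 18 genes of serine, glycine and threonine metabolism, 14 were higher and 1 was lower. Tdh, the threonine dehydrogenase on which mouse pluripotent cells depend, was at 77.0 and 42.7 in the clones and listed at 0 in MEF cells. The glycine cleavage genes Gldc and Amt went from 0.147 and 0.393 to 62.4 and 91.5 and from 0.975 and 1.46 to 33.3 and 37.0. Aldh1l2, a mitochondrial folate dehydrogenase, fell from 6.21 and 5.91 to 0.682 and 0.368. Of 27 genes of glycolysis and glucose transport, 9 were higher and 4 were lower, with a median log2 fold change of 0.39. These shares lie near the 24.0% and 20.6% over all tested genes. The glucose transporter Slc2a3 went from 3.49 and 3.37 to 372 in clone 1 and 162 in clone 3, and Slc2a1 from 33.6 and 39.9 to 226 and 141. Hk2, a hexokinase, rose 2.59-fold, and Eno2, an enolase isoform, fell from 30.1 and 32.5 to 1.40 and 0.759. Cholesterol synthesis held 9 higher and 0 lower of 25, against 24.0% and 20.6% over all tested genes. It was led by Dhcr7 at 40.2 and 44.3 against 9.97 and 11.5. With median-ratio scaling 5 were higher, in a fit where 2785 of 13619 genes were higher, so the higher share was then near that of all genes.

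Imprinted genes, of which 1 parental copy is silent, held 7 higher and 12 lower of 28 tested, a share of higher genes near the 24.0% over all tested genes, and 7 were lower without the filter on low values. At the Igf2-H19 locus on chromosome 7, Igf2, a fetal growth factor, was at 1123 and 1159 in MEF cells, 62.2 in clone 1 and 21.7 in clone 3 (adjusted p = 0.00321). H19, the noncoding RNA expressed from the other parental copy, was at 2222 and 1696 in MEF cells, 337 in clone 1 and 917 in clone 3 (log2 fold change -1.80 ± 0.52, adjusted p = 0.0413), so the clones stood in opposite order for the 2 genes, and the call for H19 was lost without clone 1. At the Dlk1-Meg3 locus on chromosome 12, Dlk1 (chr12:109452823-109463336), made from the paternal copy, went from 213 and 194 to 1.61 and 2.68, 94.8-fold lower. Of the noncoding RNAs of the maternal copy, Mirg was higher and Meg3 and Rian were not called. Meg3 (chr12:109541001-109571726) was at 74.5 and 146 in the clones and 180.0 and 159.7 in MEF cells (log2 fold change -0.69 ± 0.35, adjusted p = 0.152), and its log2 fold change was -1.18 without clone 3. Rian was at 116 and 218 against 213 and 175 (adjusted p = 0.504). Mirg rose from 4.42 and 2.73 to 12.3 and 23.3 (adjusted p = 0.0124). Phlda2 and Peg10, both used in the placenta, rose from 0.680 and 0.680 to 59.4 and 60.0 and from 18.0 and 18.3 to 172 and 254. Grb10, an adaptor of insulin signalling, fell from 314 and 299 to 63.8 and 13.9. Igf2r and its overlapping antisense RNA Airn were both lower, and without strand their reads cannot be told apart.

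Antigen presentation held 4 higher and 5 lower genes of 15 tested, not far from the 24.0% and 20.6% over all tested genes, with 2 higher without clone 1 and 3 lower with a filter on both libraries of a group. B2m, the light chain of every class I molecule, fell from 499 and 476 to 65.4 in clone 1 and 22.4 in clone 3 (adjusted p = 0.00665), and the heavy chain H2-D1 fell from 67.1 and 66.1 to 20.7 and 10.2. The heavy chain H2-K1 rose, from 9.07 and 8.67 to 85.8 and 35.5 (adjusted p = 0.0108). Class I heavy chains are close relatives, and reads shared between them were not counted when only unique alignments were kept, and their levels are therefore uncertain. H2-Q4, H2-Q7 and Psmb9 were the other higher members, with H2-Q4 at 8.95 and 5.28 in the clones and 2.63 and 3.22 in MEF cells. The call for H2-Q4 was lost without clone 1 (log2 fold change 0.68, adjusted p = 0.0580), with TPM and without the filter, and that for Psmb9 was lost without either clone (adjusted p = 0.0814 and 0.0729). Interferon response genes were lower in 16 of 29 tested and higher in 4. Cxcl12, a chemokine, fell from 111 and 103 to 3.16 and 4.58, and Ccl2 fell from 75.6 and 86.3 to 3.18 in clone 1 and 0 in clone 3. Bst2, or tetherin, rose from 17.4 and 14.9 to 95.5 and 88.7, and Ifitm1 from 2.75 and 1.16 to 30.8 and 42.3.

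Markers of other cell types were counted as well, which describes RNA and does not show which cells each arm held. Of 15 endoderm markers, 4 passed the filter, all lower in OSKM-iPSCs, and they include Pdgfra, which fibroblasts also use, at 38.1 and 32.1 in MEF cells and 0.697 and 0.267 in the clones. Of 14 mesoderm and primitive streak markers, 6 were tested, with 2 higher and 3 lower, and of 16 neural markers, 9 were tested, with 4 higher and 2 lower. Over all tested genes, 24.0% were higher and 20.6% lower, and counts this small are not far from those shares. Olig2, a factor of the neural tube, was at 8.42 and 7.66 in the clones and 0 in MEF cells. Of 9 trophoblast markers tested, 5 were higher and 0 were lower, with Ascl2, also imprinted, at 5.44 and 25.0 against 0.348 and 0.681. The limma call for Ascl2 was lost without the filter (adjusted p = 0.0653). Only 4 of these 9 had a mean over 1 FPKM in MEF cells. The others may have passed the filter through the clones alone, so the count describes the members only. Of 7 blood and endothelial markers tested, 6 were lower and 1 was higher, which was Tek, at 3.05 and 1.41 against 0.355 and 0.229, a call lost without the filter. The MEF libraries held macrophage genes, in a list of 16 written after their values were seen, of which 13 of 14 tested were lower in OSKM-iPSCs and 1 (Laptm5) was higher. All 14 were over 1 FPKM in MEF cells and 12 were under 1 in each clone, so most passed the filter through MEF cells alone. Lyz2, macrophage lysozyme, was at 111 and 102 in MEF cells and 0 in both clones, while the macrophage receptors Csf1r and Adgre1 were at 2.73 and 2.08 and at 1.17 and 1.02 in MEF cells. The summed list was 292 and 276 in MEF cells and 20.1 and 20.6 in the clones, and its part in the result was not tested. No 2-cell-stage gene passed the filter, with a summed FPKM of 0.161 in clone 1, 2.37 in clone 3 and 0 in both MEF libraries. Of 10 genes of mitochondrial DNA tested, 2 were higher and 1 was lower, no more than the shares over all tested genes, in a group where several values were listed at 0.

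Against the other pluripotent cells made from the same fibroblasts, the 2iL-iPSCs (clones 3 and 6, passages 2 and 3, reprogrammed with DOX in N2B27 plus a MEK inhibitor, a GSK3β inhibitor and LIF), OSKM-iPSCs differed at fewer genes, 573 (4.36%) higher and 352 (2.68%) lower of 13139 tested. The labels give N2B27 with DOX for the routine culture of these clones and the study's methods give 2iL without DOX, so medium, DOX and passage cannot be told apart here either. Of the 20 pluripotency transcription factors tested, 9 were lower in OSKM-iPSCs than in 2iL-iPSCs and 1 was higher. Nanog was at 195 and 207 in 2iL-iPSCs (log2 difference -2.13, adjusted p = 0.0116), and Tbx3, at 27.4 and 21.4, and Klf5, at 30.9 and 28.7, stood above MEF cells there while OSKM-iPSCs stood below them. Of 30 epithelial genes, 13 were higher in OSKM-iPSCs and 0 lower, with Krt8 at 15.7 and 9.08 in 2iL-iPSCs (log2 difference 3.77, adjusted p = 0.0302). None of 24 fibroblast identity genes met the adjusted threshold in limma (2 were higher and 0 lower at an unadjusted p-value under 0.05). Their median log2 difference was 1.23, higher in OSKM-iPSCs, so the count does not show equal levels. The summed FPKM of that list in 2iL-iPSCs, 470.4 and 490.2, lay between those of clone 3 and clone 1, which were far apart. Igf2 was at 2.22 and 0.580 in 2iL-iPSCs, below both OSKM-iPSC clones.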

How the data were processed

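RNA-Seq of 18 libraries was measured on an Illumina platform, and 4 of them, OSKM-iPSC clones 1 and 3 and MEF libraries 1 and 2, were compared. The authors aligned reads to GRCm38/mm10 with STAR 2.7.1a, kept unique alignments and ran StringTie 2.0 per library, which gave the deposited FPKM, TPM and coverage signal per gene. Whether the library kit marks strand is not given in the sources used here, so overlapping and antisense genes cannot be separated. The authors tested genes with Cuffdiff 2.2.1, which needs reads, so limma 3.58.1 (R 4.3.3) was used on log2(FPKM + 1) with mean-variance trend. A log2 fold change on this scale understates the change of low genes. Genes with FPKM over 1 in at least 1 library compared were tested, and a call needed a Benjamini-Hochberg adjusted p-value under 0.05 and mean FPKM over 2-fold apart. Folds are ratios of mean FPKM. X- and Y-linked genes entered the fit and its adjustment and were left out of every count of changed genes. They were kept in the coverage ratio and in the comparison of replicate libraries. Rows sharing 1 identifier were summed (11 identifiers), U2surp and St13, with failed estimates, were left out, and a symbol with several identifiers stands for the highest. Cyr61 and Ctgf were listed as Ccn1 and Ccn2, and 2 further listed symbols had no match.

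The 4 libraries allow 2 residual degrees of freedom. Members and gene lists were chosen with earlier results of these data known. Named genes were the 10 largest log2 fold changes in each direction among called genes with no overlap between groups, leaving out predicted genes, the key genes of each list, up to 3 further members per list and direction, members against their list's direction, members of counts of 5 or fewer, and the 5 called genes with the largest difference between clones in each direction. Myl9, Cnn2, Vcl and Zfp296 were named for a promoter match, and the macrophage list was written, after values were seen. Promoters were RefSeq windows of 250 bases on GRCm38.p6. The same fit compared OSKM-iPSCs with 2iL-iPSCs. Alternatives were a pseudocount of 0.1, no filter, a filter on both libraries of a group, median-ratio scaling, quantile normalization, TPM, no trend, all 18 libraries, X and Y genes left out first, the highest of repeated identifiers, an unadjusted p-value, and each library left out. The fit was tested on simulated data. Python 3.11.15 with numpy 2.4.6, pandas 2.3.3 and matplotlib 3.10.9 was used for the rest.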

Additional observations from a re-analysis of the deposited data

Results flagged for a closer look

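The groups held 2 libraries each, so no library was tested as an outlier. Of 71 key genes named, 66 were tested in the direct fit of OSKM-iPSCs against 2iL-iPSCs, in which the MEF libraries play no part. With limma, 19 of them differed over 2-fold at an adjusted p-value under 0.05, 11 higher and 8 lower in OSKM-iPSCs. Over all genes tested in that fit, 4.36% were higher and 2.68% lower. The key genes were chosen with earlier results of these data known, so their counts describe the members only. Changes of these 19 genes against MEF cells use the same MEF libraries, so each gene's difference between the 2 kinds of iPSC is given here as OSKM-iPSCs minus 2iL-iPSCs on log2(FPKM + 1).

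Among pluripotency genes the lower ones were Esrrb with -2.66, Tdh with -2.56, Nanog with -2.13, Fgf4, a growth factor of the inner cell mass, with -1.48, and Tdgf1 with -1.04. Tet2 with -1.53, Zfp57, a zinc finger protein that protects imprints, with -1.34, and Cbx7 with -1.38 were the lower chromatin genes. The higher genes included Myc with 1.69, the epithelial genes Krt8 with 3.77, Cldn6 with 2.39, Esrp1 with 1.55 and Epcam with 1.54, and the cell-cycle inhibitors Cdkn2a with 1.25 and Cdkn2b with 1.54. The imprinted pair H19 with 4.32 and Igf2 with 4.07 and the antigen presentation genes H2-K1 with 2.47 and B2m with 2.35 were higher as well.

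Cdkn2a, Tet2 and Myc had not met both thresholds against MEF cells. Cdkn2b, B2m, H19 and Igf2 were lower in OSKM-iPSCs than in MEF cells, so OSKM-iPSCs lay between MEF cells and 2iL-iPSCs for these 4 genes.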

How the results depend on the processing

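No gene changed from called higher to called lower or the reverse under any alternative. With all 4 libraries the counts ranged from 2785 higher with median-ratio scaling to 3764 with all 18 libraries in one fit, and from 2719 lower with a pseudocount of 0.1 to 3303 with TPM. Higher genes made up 53.8% of calls, against 46.5% with median-ratio scaling, 49.7% with quantile normalization and 49.9% with TPM. Leaving out 1 library at a time gave 0 to 3638 higher and 0 to 3087 lower genes, with 0 in both directions without MEF library 1 or 2. At an unadjusted p-value under 0.05, an alternative chosen after seeing the data, the ranges were 2599 to 3714 and 2249 to 3181. Over the alternatives of the 195 named genes, 2274 values kept direction and side of the threshold, 444 lost their call (374 of them without a MEF library), 4 gained one and 2 reversed, which were Cdkn1c with 0.12 without clone 3 and -1.67 without clone 1, and Rian with 0.17 without clone 1 and -0.73 without clone 3. The fibroblast identity share of MEF cells was 10.3% in clone 1 and 2.21% in clone 3 with TPM, 9.66% and 2.11% without the 3 members highest in MEF cells, and 5.03% and 0.125% as the median over members. Among lists, germline genes went from 6 to 15 higher with all 18 libraries in one fit, cholesterol synthesis from 9 to 5 higher with median-ratio scaling, and imprinted genes from 12 to 7 lower without the filter. The causes were not tested. No paired analysis was possible because the OSKM-iPSC clones (1 and 3) and the MEF libraries (1 and 2) share only 1 number. The depth in reads is unknown, so a value listed at 0 carries no upper limit.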
